A study of Mus musculus with 6 samples.

Results

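The genes described here are 41 interferon-induced and antigen presentation genes, chosen by name and matched to the array through its gene symbols. They comprise 26 genes known mainly as targets of type I interferon, 7 made up of Irf1 and 6 interferon-gamma-inducible GTPase genes, and 8 genes of antigen processing and presentation. Of the 41 genes, 39 were represented by a probe set of their own, among 18193 genes on the array. Isg15 shared its probe set with another symbol and Ifi44 was not named in the annotation used, so neither has a level here. Both were part of the motif search in promoters. Where several probe sets named a gene, the one with the highest average log2 level represented it.

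The lungs came from C57/BL6 mouse embryos at E18.5, shortly before birth, and total RNA of the left lobe was read on Affymetrix Mouse430_2 arrays, with 1 array per animal. There were 3 Smad1 CKO animals, in which Smad1 had been removed conditionally in the lung epithelium, and 3 wild type animals, arranged as 3 pairs of 1 CKO and 1 wild type animal. Smad1 relays signals of bone morphogenetic proteins to the nucleus. The labels give neither the driver of the conditional deletion nor the deleted part of Smad1, nor the alleles that the wild type animals carry. The whole lobe was profiled, so in these bulk samples fewer cells of a type and less RNA per cell cannot be told apart.

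Type I interferons act through the receptor chains Ifnar1 and Ifnar2, which activate the kinases Jak1 and Tyk2 and a complex that holds Stat2 and Irf9. This complex binds the interferon-stimulated response element (ISRE) in the promoters of genes that restrict viruses. Interferon gamma acts through the gamma-activated site (GAS) in promoters and through Irf1, and it induces the GTPases that attack the vacuoles of intracellular parasites. Antigen processing genes make peptides with the immunoproteasome, carry them into the endoplasmic reticulum and load them on class I molecules, while Cd74 and Ciita serve the class II pathway. Unstimulated tissues hold a low, steady expression of many of these genes. Class II genes are known from macrophages, dendritic cells and B cells, and in lung also from alveolar type 2 cells.

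Some of the promoters of these genes hold the letters of a shared element, the ISRE. Promoter windows of 300 bases (250 before to 50 after the gene start, RefSeq, build GRCm38.p6) were at hand for 31 of the 41 genes. The ISRE was searched as GAAA, any 2 bases and GAAA again, and the GAS as TTCNNNGAA, where N is any base, both on either strand. The ISRE letters stood in the windows of 16 of the 31 members, or 51.6%, against 3.99% of all 27025 genes with a window. They were present in 10 of 20 type I genes, in 5 of 6 of the Irf1 and GTPase genes and in 1 of 5 antigen processing genes. The GAS letters stood in 8 members, 25.8%, against 9.55% of all genes. In Bst2 and Ifit1 among others the ISRE letters occurred more than once, in part overlapping, and in Bst2 they also overlapped a GAS match. The stretches below are shown because they carry these letters in 6 members that were lower in the CKO lungs on average (Ifit1, Bst2, Gbp2, Gbp3, Gbp7 and B2m) and in 3 that were not (Oas3, Ifit3 and Igtp). They were chosen after the values were seen. Capitals mark the ISRE letters on either strand, and each stretch runs 5′ to 3′ along the gene's own strand. The stretches lie at chr19:34640760-34640838 (plus strand, Ifit1), chr8:71537562-71537627 (minus, Bst2), chr3:142620579-142620638 (plus, Gbp2), chr3:142559974-142560039 (plus, Gbp3), chr3:142530258-142530317 (plus, Gbp7) and chr2:122147523-122147582 (plus, B2m). The other 3 lie at chr5:120777700-120777759 (minus, Oas3), chr19:34583348-34583441 (plus, Ifit3) and chr11:58199497-58199556 (plus, Igtp).
Ifit1: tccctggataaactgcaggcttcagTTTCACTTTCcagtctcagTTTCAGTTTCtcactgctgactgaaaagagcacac
Bst2: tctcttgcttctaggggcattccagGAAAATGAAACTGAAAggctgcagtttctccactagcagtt
Gbp2: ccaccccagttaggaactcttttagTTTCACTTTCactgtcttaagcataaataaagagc
Gbp3: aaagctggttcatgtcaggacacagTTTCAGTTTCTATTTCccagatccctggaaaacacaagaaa
Gbp7: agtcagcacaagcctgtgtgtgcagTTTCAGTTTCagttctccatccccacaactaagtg
B2m: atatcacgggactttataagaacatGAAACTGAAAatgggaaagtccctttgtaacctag
Oas3: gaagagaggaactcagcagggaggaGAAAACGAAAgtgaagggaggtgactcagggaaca
Ifit3: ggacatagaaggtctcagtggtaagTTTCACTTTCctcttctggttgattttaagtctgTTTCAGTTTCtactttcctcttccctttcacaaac
Igtp: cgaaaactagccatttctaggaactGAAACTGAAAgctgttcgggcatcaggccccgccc
In Ifit1 the first match began at position -104, in Gbp2 at -59 and in B2m at -139, counted from the gene start with its first base as 1. The letters did not sort the members by how they differed between genotypes. Of 15 measured members with the ISRE letters, 9 were lower in the CKO lung of every pair, with a median difference of -0.55 (log2), and of 14 without them 10 were lower in every pair, with a median of -0.50.

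**Figure D1:**
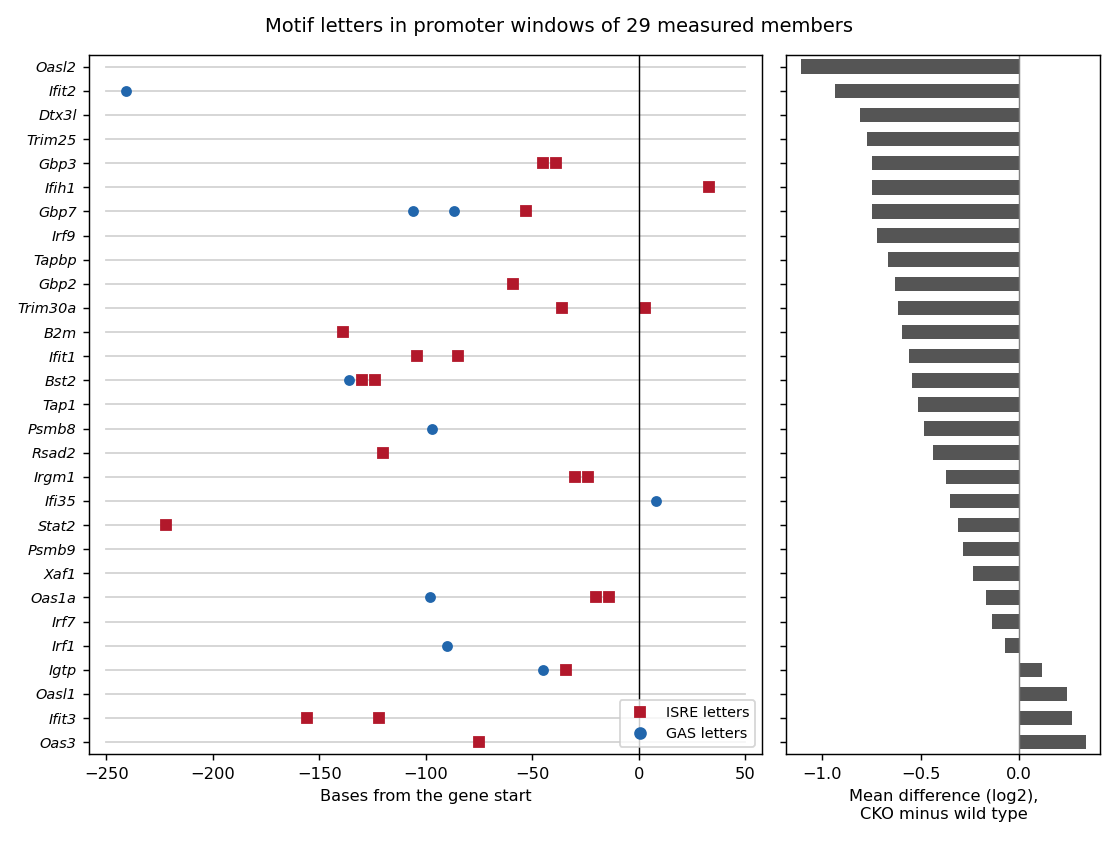
Left, place of the ISRE letters (squares) and GAS letters (circles) in bases from the gene start, in the promoter windows of the 29 measured members that have one. Right, mean difference in log2 intensity, Smad1 CKO minus wild type, in the same order; ISRE letters occur both near the top (Gbp3, Ifih1) and at the bottom (Ifit3, Oas3).

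Levels are log2(intensity + 1) of the deposited values, and differences are Smad1 CKO minus wild type within pairs, given as the mean of 3 pairs with the SD over pairs. The array of CKO lung 3 had a beta-actin control intensity of 5820, against 18445 to 20900 elsewhere, and an upper quartile of intensity of 170.3, against 222.3 to 283.8. Its 18S rRNA control intensity was 2887, against 242.5 to 297.2, and its ratio of 3′ to 5′ beta-actin signal was 1.56, against 1.21 to 1.39. The part of these features in the results of pair 3 was not tested. Genes were split by mean level into 3 classes of equal size, dim, middle and bright. In pair 3 the bright class had a median difference of -1.09, against -0.29 in pair 1 and -0.03 in pair 2, and the dim class had 0.36, 0.25 and 0.03 in pairs 3, 1 and 2. CKO lung 1 had an Xist level of 10.95, against 6.07 to 7.70 elsewhere, so pair 1 also holds a difference in sex-linked genes. Neither feature touched pair 2. Smad1 itself was at 10.12, 10.62 and 9.05 in CKO lungs 1 to 3 and at 10.004, 10.09 and 9.53 in wild type lungs 1 to 3, and whether its probe set lies in the deleted part is unknown, so it is no check of the labels. The type 2 cell marker Sftpc had a level of 12.2 or more on every array. The number of arrays limits the precision, and p-values measure the spread between these animals only.

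Most of the measured members lay lower in the CKO lungs, by up to about 2-fold, and none passed the test across the array. By limma with the pair as a block, 0 of 39 members were past an adjusted p of 0.05, and over all 45037 probe sets 1 was, or 0.00222%. At an unadjusted p under 0.05 the CKO lungs were lower in 18 of 39 members, against 9.96% of all genes, and higher in 0, against 4.96%. Among the middle and the bright class, which hold 33 of the 39 members, 12.7% and 15.6% were lower at that level. In all 3 pairs the CKO lung was lower in 24 members, against 29.3% of all genes and 31.4% and 50.9% of the middle and the bright class, and higher in 3, against 21%. In pair 2 alone, where the median difference of all genes was -0.0018, the CKO lung was lower in 30 of 39 members, against 50.4% of genes. It was lower in 30 members in pair 1 and in pair 3 too, against 56.9% and 56.4% of genes. The groups themselves overlapped for nearly all members. Every CKO array lay below every wild type array for 2 members, Ifit1 and Iigp1, against 6.05% of all genes, and above it for 1, Mx2, against 4.25%. Without pair 3 the CKO lung was lower in both other pairs in 26 members, against 34.2% of genes, without pair 1 in 25, against 33.1%, and without pair 2 in 27, against 46.8%. At an unadjusted p under 0.05 the members lower numbered 15 without pair 3, against 5.81% of all probe sets, 3 without pair 1, against 1.32%, and 15 without pair 2, against 15.6%. The count was 1 in an unpaired fit that left out CKO lung 3, against 2.37% of all probe sets, and 4 in the fit without the pair, where 3.01% of all genes were lower. With array weights the adjusted test called 25 members, 24 of them lower, but that fit called 23234 of all 45037 probe sets.

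**Figure D2:**
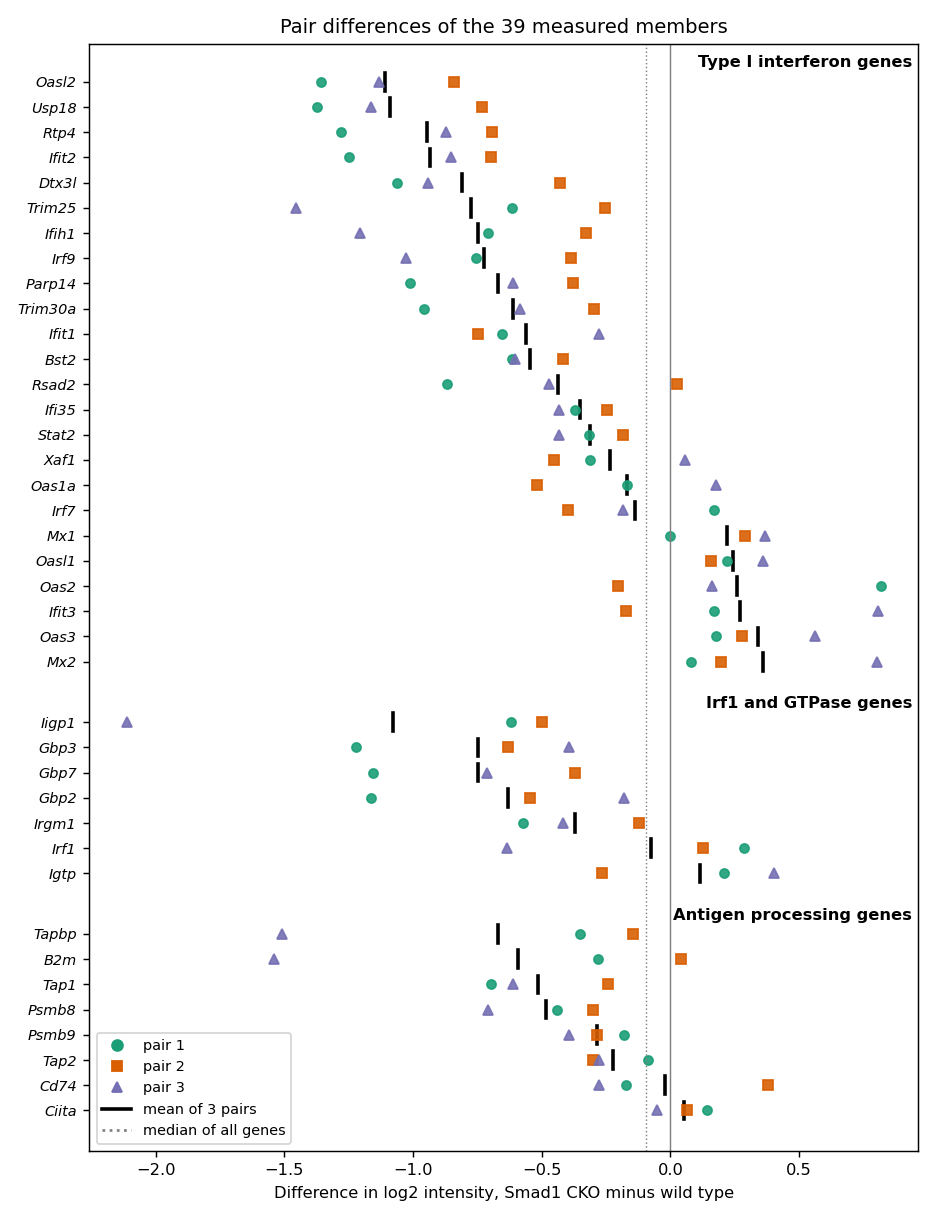
Difference in log2 intensity, Smad1 CKO minus wild type, of the 39 measured members, with 1 symbol per pair, a black bar at the mean of 3 pairs and a dotted line at the median of all genes (-0.09). The symbols of 24 members lie left of 0 in all 3 pairs, and those of pair 2 (squares) are mostly the closest to 0.

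Among the type I interferon genes, Oasl2, Usp18, Rtp4 and Ifit2 differed most. Oasl2, an oligoadenylate synthetase-like protein, was at 6.65, 7.54 and 5.89 in CKO lungs 1 to 3 and at 8.01, 8.38 and 7.02 in wild type lungs 1 to 3. The CKO lung was the lower one in each pair, while CKO lung 2 lay above wild type lung 3, so the groups overlapped. The difference was -1.11 ± 0.26 (SD, 3 pairs), or 2.16-fold lower, with a 95% interval of -1.60 to -0.62 (limma, unadjusted p = 0.00162, adjusted p = 0.367). Usp18, a protease that removes Isg15 from proteins and dampens the type I receptor, was at 7.01, 7.67 and 6.43 in the CKO and at 8.39, 8.41 and 7.59 in the wild type lungs. Only CKO lung 2 reached the range of the wild type lungs, and the difference was -1.09 ± 0.33, or 2.13-fold lower (limma, unadjusted p = 0.0023, adjusted p = 0.367).

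Ifit2, which binds RNA and restrains translation, was at 7.02, 7.80 and 6.52 in CKO lungs and at 8.27, 8.50 and 7.38 in wild type lungs, with a difference of -0.93 ± 0.28. Rtp4, a receptor transporter protein induced by interferon, was at 7.81, 9.06 and 7.99 in CKO lungs and at 9.09, 9.75 and 8.86 in wild type lungs, with a difference of -0.95 ± 0.30. In both genes pair 2 had the highest CKO and the highest wild type value. The second probe set of Rtp4, a dim one, gave a difference of 0.04. Ifit1, which binds the caps of foreign RNA, was at 4.78, 4.83 and 4.57 in CKO lungs and at 5.43, 5.58 and 4.85 in wild type lungs. Its groups did not overlap, with a difference of -0.56 ± 0.25, but all 6 values lay below the array medians of 6.15 to 6.30.

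**Figure D3:**
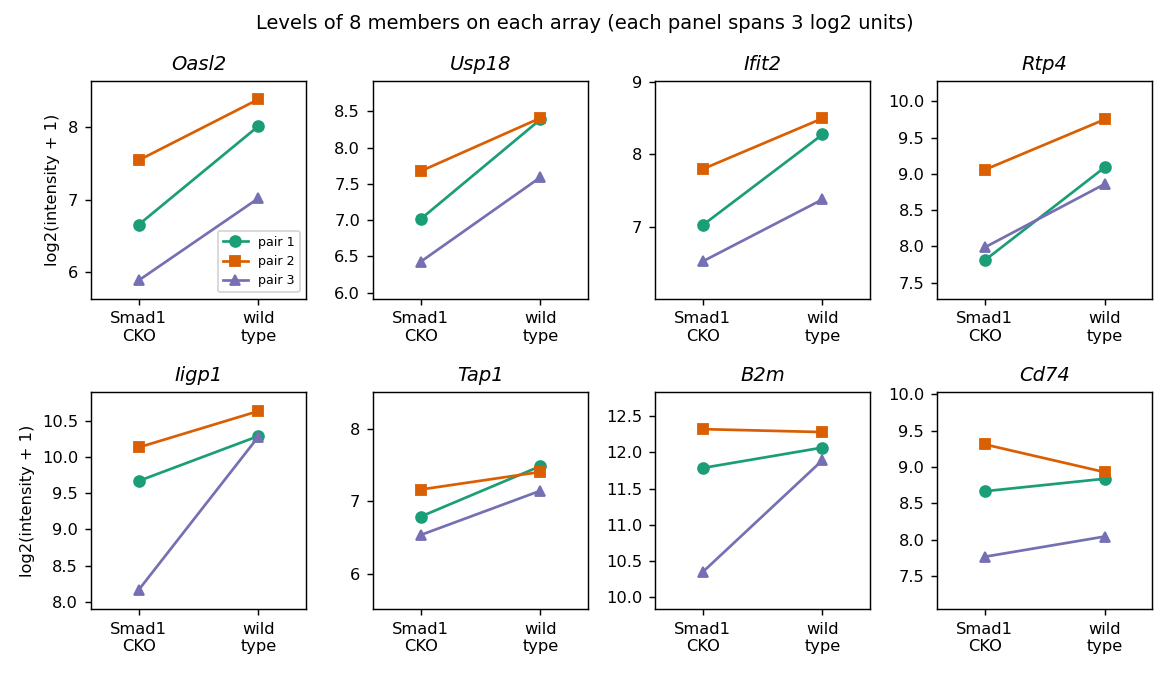
log2(intensity + 1) of 8 members in Smad1 CKO lungs (left of each panel) and wild type lungs (right), with a line joining the animals of a pair and every panel spanning 3 log2 units. For Oasl2, Usp18, Ifit2, Rtp4, Iigp1 and Tap1 the 3 lines run up to the wild type, while B2m and Cd74 have pairs that run the other way.

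Some components of the response itself also lay lower. Irf9, the DNA-binding subunit of the type I complex, was at 8.23, 8.82 and 7.75 in CKO lungs and at 8.99, 9.20 and 8.78 in wild type lungs, a difference of -0.72 ± 0.32. CKO lung 2 was just above wild type lung 3. Its partner Stat2 had a smaller difference of -0.31 ± 0.12, lower in each pair (limma, unadjusted p = 0.145). The other probe set of Stat2, at a mean level of 6.69 against 6.93, gave -0.28. That one was lower only in pair 1 (-0.98), with 0.09 and 0.06 in pairs 2 and 3. Irf7, which amplifies interferon production, was at 6.71, 6.42 and 6.003 in CKO lungs and at 6.54, 6.82 and 6.19 in wild type lungs. Its pairs did not share a direction, and the interval of -0.64 to 0.37 spans 0.

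A sensor and several ubiquitin ligases lay lower in each pair. Ifih1, also called Mda5, a sensor of double-stranded RNA, was at 7.94, 8.46 and 7.05 in CKO lungs and at 8.65, 8.79 and 8.26 in wild type lungs (difference -0.75 ± 0.44). Trim25, a ligase that assists RNA sensing, had a difference of -0.77 ± 0.62, and most of it came from pair 3 (-1.46, against -0.61 in pair 1 and -0.25 in pair 2). Trim30a differed by -0.61 ± 0.33. Dtx3l, a ligase that partners with Parp9, was at 6.98, 7.94 and 6.95 in CKO lungs and at 8.04, 8.37 and 7.89 in wild type lungs (-0.81 ± 0.34). Its second probe set gave -0.75. Parp14, an ADP-ribosyltransferase, differed by -0.67 ± 0.32, while its dimmer probe set gave 0.41.

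Several effectors showed smaller or mixed differences. Bst2, or tetherin, which holds budding viruses at the cell surface, had close values over pairs, with a difference of -0.55 ± 0.11. Ifi35 differed by -0.35 ± 0.10 and was also lower in each pair. Its other probe sets gave -0.46 and -0.33, the latter with 0.13 in pair 3. Rsad2, or viperin, an antiviral enzyme, was at 8.82, 9.19 and 8.69 in CKO lungs and at 9.69, 9.16 and 9.16 in wild type lungs. Pair 2 thus showed almost no difference (0.03), and the mean was -0.44 ± 0.45. The dimmer probe sets of Rsad2 gave -0.36 and -0.91, and the latter was lower in each pair. Xaf1, which promotes cell death, differed by -0.23 ± 0.26 and Oas1a, an oligoadenylate synthetase, by -0.17 ± 0.35, neither in 1 direction over pairs. The probe sets of Ifi35 and Trim25 used here are of a type that can read more than 1 transcript.

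The other 6 type I genes were higher in the CKO lungs on average, and none of them passed even the unadjusted threshold. Mx2, an antiviral GTPase, was at 5.80, 5.94 and 6.58 in CKO lungs and at 5.72, 5.75 and 5.78 in wild type lungs. All 3 CKO values lay above the wild type ones, with 0.80 of difference in pair 3 and 0.08 and 0.19 in pairs 1 and 2. Oasl1, which in mice restrains the translation of Irf7, differed by 0.24 ± 0.10 and Oas3 by 0.34 ± 0.20, both higher in each pair. Mx1 differed by 0.22 ± 0.19, Oas2 by 0.26 ± 0.52 and Ifit3 by 0.27 ± 0.50. Oasl1, Oas3, Mx1 and Mx2 belong to the dim class of genes, which had a median difference of 0.24. Their differences are close to those of other dim probe sets on the same arrays.

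Most GTPase genes lay lower in the CKO lungs as well. Gbp3, a guanylate-binding protein, was at 6.17, 6.88 and 6.21 in CKO lungs and at 7.39, 7.52 and 6.60 in wild type lungs, a difference of -0.75 ± 0.43. Gbp7 was at 8.59, 9.62 and 8.18 in CKO lungs and at 9.75, 9.99 and 8.89 in wild type lungs, also with -0.75 (SD 0.39). Gbp2, whose probe set is of a type that can cross-hybridise, differed by -0.63 ± 0.50, and its other probe set by -0.76. For these 3 genes the difference was largest in pair 1 and the CKO lung was lower in each pair. After cyclic loess Gbp3 was at -0.66 and Gbp2 at -0.58, both still lower in each pair, while Gbp7 was at -0.28 (unadjusted p = 0.297) with 0.34 in pair 3.

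Iigp1, an immunity-related GTPase of mice, was at 9.67, 10.13 and 8.16 in CKO lungs and at 10.29, 10.63 and 10.28 in wild type lungs. The groups did not overlap. The mean difference was -1.08 ± 0.90, or 2.11-fold lower, and without pair 3 it was -0.56, since pair 3 alone had -2.11. The second probe set of Iigp1, with a mean level of 8.45, gave a smaller difference of -0.46. Its pair differences were -0.31, -0.53 and -0.54, so it did not share the large fall in pair 3. Irgm1, which regulates the other immunity-related GTPases, differed by -0.37 ± 0.23. Igtp, also called Irgm3, had a mixed difference of 0.12 ± 0.34. Irf1, a transcription factor of the interferon gamma response, was at 9.61, 9.16 and 8.40 in CKO lungs and at 9.32, 9.04 and 9.04 in wild type lungs. It was higher in CKO lungs 1 and 2 and lower in CKO lung 3 than in their partners (-0.07 ± 0.49), and after cyclic loess normalization between arrays its difference was 0.39 (unadjusted p = 0.0518).

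Of the 8 antigen processing genes 5 were lower in each pair. Tap1, a subunit of the peptide transporter, was at 6.79, 7.16 and 6.54 in CKO lungs and at 7.48, 7.40 and 7.15 in wild type lungs. CKO lung 2 exceeded wild type lung 3 by a narrow margin, and the difference was -0.52 ± 0.24 (limma, unadjusted p = 0.0412, adjusted p = 0.367). The other 3 probe sets of Tap1 were dimmer and gave 0.30 to 0.76, so the gene's probe sets disagreed, and their mean with the first was 0.26. Tap2, the other transporter subunit, differed by -0.22 ± 0.12 with an interval of -0.68 to 0.23. Psmb8 and Psmb9, catalytic subunits of the immunoproteasome, differed by -0.48 ± 0.21 and -0.29 ± 0.11. Both were lower in each pair, and the dimmer probe set of Psmb8 gave 0.08.

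Tap1 and Psmb9 lie next to each other and are read in opposite directions, with gene starts 226 bases apart. The 275 bases that their promoter windows share are shown because 1 stretch serves both genes (GRCm38.p6, chr17:34187306-34187580, plus strand). Capitals mark the first base of Psmb9, near the left end, and of Tap1, near the right end. The stretch holds neither the ISRE nor the GAS letters.
Tap1-Psmb9: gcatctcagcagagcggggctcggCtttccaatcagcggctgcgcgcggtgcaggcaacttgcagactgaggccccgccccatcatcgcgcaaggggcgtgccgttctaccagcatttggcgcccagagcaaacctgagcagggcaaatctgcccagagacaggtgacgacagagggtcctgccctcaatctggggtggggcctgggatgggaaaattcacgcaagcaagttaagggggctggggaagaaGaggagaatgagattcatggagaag
In pair 2 the 2 genes differed by -0.24 (Tap1) and -0.28 (Psmb9), and in pair 1 by -0.70 and -0.18.

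For the class I partners most of the difference lay in pair 3. Tapbp, or tapasin, which holds class I molecules at the transporter, was at 10.09, 10.18 and 8.61 in CKO lungs and at 10.44, 10.32 and 10.11 in wild type lungs. Its difference was -0.67 ± 0.74, and -0.25 without pair 3. B2m, the light chain of class I molecules, was at 11.78, 12.32 and 10.35 in CKO lungs and at 12.06, 12.28 and 11.89 in wild type lungs. The CKO value was higher than its partner in pair 2, and the difference was -0.59 ± 0.84, and -0.12 without pair 3.

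Both class II genes had mean differences near 0. Cd74, the invariant chain, was at 8.67, 9.31 and 7.76 in CKO lungs and at 8.84, 8.93 and 8.04 in wild type lungs, a difference of -0.02 ± 0.35 with an interval of -0.56 to 0.51. Ciita, the class II transactivator, lay below the array medians on all arrays and differed by 0.05 ± 0.10. After cyclic loess Cd74 was at 0.40 (unadjusted p = 0.0487) and Ciita at -0.14.

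Set side by side, the type I genes were lower than the antigen processing genes in pairs 1 and 2 but not in pair 3. The 24 type I genes had a median difference of -0.49, with -0.62, -0.35 and -0.45 in pairs 1 to 3. The 8 antigen processing genes had -0.39, with -0.23, -0.19 and -0.50, and all genes had -0.09, with -0.09, -0.0018 and -0.16. The type I median minus the antigen processing median was -0.11 over all pairs and -0.38, -0.16 and 0.05 in the pairs. These 3 values lie on both sides of 0, so the groups of genes did not differ beyond the spread between pairs. Irf1 and the GTPase genes had a median of -0.63. At an unadjusted p under 0.05 the CKO lungs were lower in 12 of 24 type I genes, 4 of 7 of Irf1 and the GTPase genes and 2 of 8 antigen processing genes. The share was 9.96% of all genes, and 12.7% and 15.6% of the middle and the bright class. After cyclic loess, which evens out differences that depend on brightness, the type I median was -0.20, with -0.31, -0.31 and -0.03 in pairs 1 to 3, and the antigen processing median was -0.14, with -0.04, -0.17 and -0.12. The CKO lung was then lower in each pair in 11 of 24 type I genes and 3 of 8 antigen processing genes, against 17.5% of all genes. Of the 24 members lower in each pair on the deposited scale, 17 stayed so, and Bst2, Gbp7, Ifi35, Irgm1, Psmb9, Rtp4 and Tap2 did not. The type I genes lower at an unadjusted p under 0.05 then numbered 7, against 6.25% of all genes. They were Oasl2 (-0.91), Usp18 (-0.81), Ifit1 (-0.75), Ifit2 (-0.66), Dtx3l (-0.51), Parp14 (-0.49) and Ifih1 (-0.38). Among Irf1 and the GTPase genes 3 were then lower at that level. Among the antigen processing genes 0 were lower and 1 higher.

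**Figure D4:**
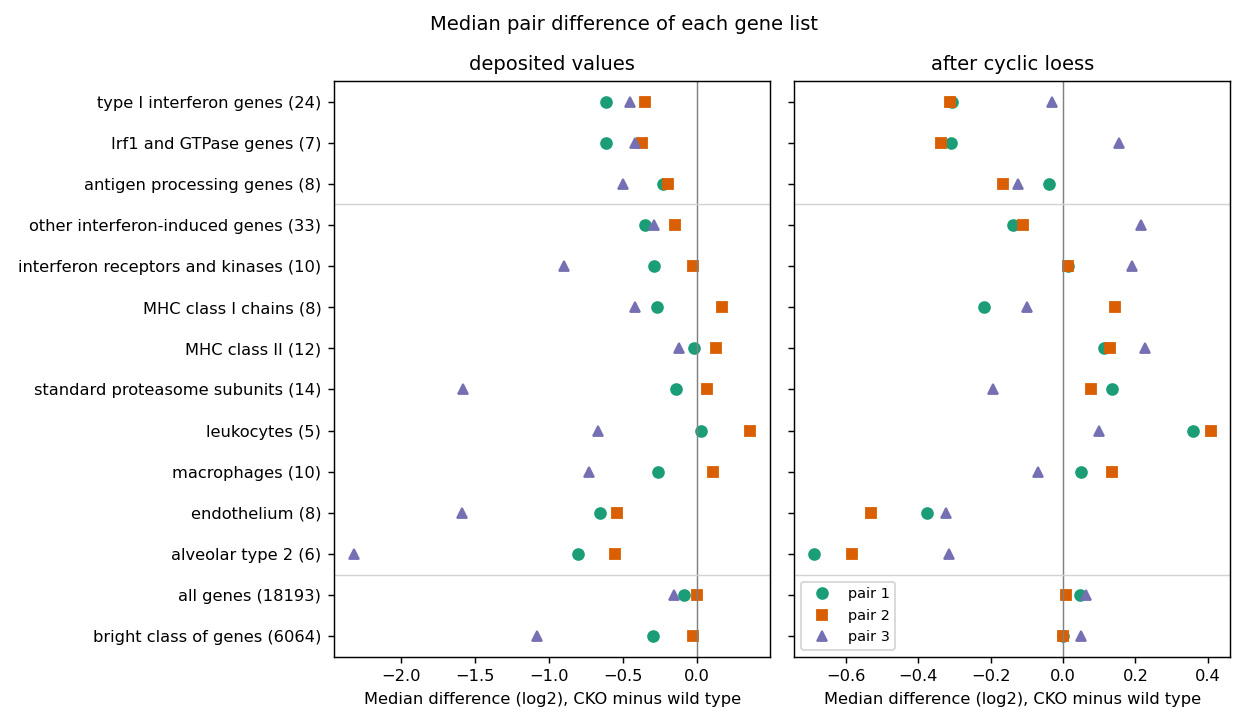
Median difference in log2 intensity, Smad1 CKO minus wild type, of each gene list in pairs 1 to 3, from the deposited values (left) and after cyclic loess between arrays (right), with the number of measured genes in brackets and separate scales. In pair 2 (squares) the type I median is -0.35 and the antigen processing median -0.19, while that of all genes is near 0.

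The order of the animals was alike in most members, and in large part in other genes too. The mean level of the 24 type I genes was 7.05, 7.38 and 6.87 in CKO lungs 1 to 3 and 7.56, 7.69 and 7.24 in wild type lungs 1 to 3. CKO lung 2 thus exceeded wild type lung 3, and both animals of pair 2 were the highest of their genotype. Of the 14 type I genes that were lower in each pair, 14 had their highest wild type value in wild type lung 2, 13 their lowest in wild type lung 3, and 14 their highest CKO value in CKO lung 2. Among the 5334 genes on the array that were lower in each pair, these shares were 62.5%, 81.2% and 85.2%. The range over the 3 wild type lungs was larger than the mean difference between genotypes in 7 of the 14, against 31.6% of those genes. The antigen processing genes averaged 8.13, 8.38 and 7.38 in CKO lungs and 8.39, 8.48 and 8.06 in wild type lungs, and 7 of 8 had their lowest level in CKO lung 3, as did 47.9% of all genes.

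Of the other genes of the pathway 0 passed the adjusted threshold in limma. Of 33 measured interferon-induced genes beyond the members, 16 were lower in the CKO lung of each pair and 5 higher, 7 were lower and 0 higher at an unadjusted p under 0.05, and the median was -0.28. Of all genes 29.3% were lower in each pair and 21% higher, and 31.4% of the middle and 50.9% of the bright class were lower. At an unadjusted p under 0.05 the shares of all genes were 9.96% lower and 4.96% higher. After cyclic loess the median was -0.03, with -0.14, -0.11 and 0.21 in pairs 1 to 3, and 9 were lower and 7 higher in each pair. The smallest p-values were those of Lgals9, which encodes galectin-9, at -0.82 ± 0.41, of Ifi27 at -0.65 ± 0.28, of Parp12 at -0.60 ± 0.23 and of Nmi at -1.15 ± 0.98. Nmi binds Ifi35, and its difference was -2.24 in pair 3, against -0.84 in pair 1 and -0.37 in pair 2. After cyclic loess these 4 genes were at -0.31 (Lgals9), -0.14 (Ifi27), -0.15 (Parp12) and -0.80 (Nmi). Of 5 measured ligand genes none was lower or higher at an unadjusted p under 0.05. Ifnb1 was at 6.38, 5.58 and 6.75 in CKO lungs and at 5.62, 5.69 and 5.78 in wild type lungs. CKO lungs 1 and 3 lay above all wild type lungs, and CKO lung 2 below them. The wild type values and that of CKO lung 2 were below the array medians of 6.15 to 6.30, so the signal was weak. The ligand genes had pair medians of 0.73, -0.05 and 0.61, and the dim class of genes had 0.25, 0.03 and 0.36.

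Receptors and kinases had a median of -0.38 over 10 genes, with -0.29, -0.03 and -0.90 in the pairs, near those of the bright class in pairs 1 and 2. Ifnar1 differed by -0.45 ± 0.45 and Jak1 by -0.73 ± 0.78. After cyclic loess the median of these genes was 0.03, with 0.014, 0.014 and 0.19 in pairs 1 to 3. Ifnar1 was then at -0.04 and Jak1 at -0.19. Among 10 negative regulators, Irf2 (-0.72 ± 0.53) and Ptpn1 (-0.68 ± 0.55) were lower at an unadjusted p under 0.05, against 9.96% of all genes. Of 17 sensors and adaptors, Tlr7 was higher at that level (0.62 ± 0.46) and none was lower. The share of all genes higher was 4.96%, so 1 gene of 17 is near it. Tlr7 had levels of 5.35 to 6.44, against array medians of 6.15 to 6.30.

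Class I chain genes had mixed differences. H2-K1 was at 11.32, 11.58 and 10.21 in CKO lungs and at 11.21, 11.09 and 10.86 in wild type lungs, and H2-D1 at 11.77, 11.93 and 10.25 in CKO lungs and at 11.67, 11.58 and 11.16 in wild type lungs. Both were higher in the CKO lung in pairs 1 and 2 and lower in pair 3. Class I chain genes are alike in sequence, so these probe sets may read more than 1 of them. Cd1d1, a lipid-presenting relative, was lower in each pair (-0.88 ± 0.52). The other 8 class I processing genes had pair medians of -0.06, 0.06 and -1.59. The 14 standard proteasome subunits had -0.14, 0.07 and -1.58. The immunoproteasome subunits had -0.44, -0.30 and -0.71 (Psmb8), -0.18, -0.28 and -0.39 (Psmb9) and -0.27, -0.16 and -0.44 (Psmb10). The standard subunits were brighter, with a mean level of 9.29 to 11.07, against 6.97 to 8.34 for Psmb8. After cyclic loess the standard subunits had a median of -0.0067, and Psmb8 was at -0.17, Psmb9 at -0.13 and Psmb10 at 0.14. Of 12 other class II genes none was past the unadjusted threshold, with a median of -0.0064. H2-Aa was at -0.35 ± 0.46 and H2-Ab1 at 0.05 ± 0.32.

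Markers of some cell types were also lower in the CKO lungs, and their part in the result was not tested. All 8 endothelial markers were lower in each pair, with pair medians of -0.66, -0.54 and -1.59, and a mean level of 8.72 to 10.43 in CKO lungs against 10.42 to 10.999 in wild type lungs. Of 6 alveolar type 2 markers 5 were lower in each pair, with pair medians of -0.80, -0.55 and -2.32, and a mean level of 10.63 to 12.50 in CKO lungs against 12.85 to 13.08 in wild type lungs. Of all genes 29.3% were lower in each pair, and of the bright class 50.9%. After cyclic loess 5 of the 8 endothelial and 3 of the 6 type 2 markers were lower in each pair, against 17.5% of all genes. The 6 general epithelial markers had pair medians of -0.09, 0.11 and -1.79, and 3 were lower in each pair. Leukocyte markers were mixed. Of 5 general ones, 0 were lower in each pair, with pair medians of 0.03, 0.36 and -0.67, and a mean level of 7.58 to 9.06 in CKO lungs against 8.25 to 8.75 in wild type lungs. Ptprc, or CD45, was at 8.22, 9.04 and 7.24 in CKO lungs and at 8.52, 8.63 and 7.91 in wild type lungs. Its pair differences were -0.30, 0.41 and -0.67 in pairs 1 to 3.

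Macrophage markers were split. Over 10 genes the pair medians were -0.26, 0.11 and -0.73, with a mean level of 8.68 to 9.82 in CKO lungs against 9.57 to 9.90 in wild type lungs, and 4 were lower in each pair. The lower ones included Lyz2 (-1.45 ± 0.71), a lysozyme that alveolar type 2 cells also express, and C1qa (-0.98 ± 0.52), a complement component. Another 1 was higher in each pair, and Adgre1 (0.51 ± 0.87) and Cd68 (0.05 ± 0.71) had mixed directions. Of all genes 29.3% were lower in each pair, and of the bright class 50.9%. After cyclic loess 3 of the 10 macrophage markers were lower in each pair and 4 higher. Dendritic cell, lymphocyte and neutrophil markers had medians of 0.14 (7 genes), 0.28 (8 genes) and -0.04 (5 genes). None of the markers of these lists is at 0, since the deposited intensities hold no zero.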

How the data were processed

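Per the file's values, the authors deposited a linear intensity for each probe set, and the submitters' processing notes name RMA. Its version and settings are not stated there. The upper quartile of intensity ran from 170.3 to 283.8 over the arrays. The deposited values thus do not share 1 distribution, which a quantile normalization between arrays would have given them. Each intensity was converted to log2(value + 1). After 64 control probe sets were left out 45037 remained, of which the platform annotation gives a single symbol to 34945, more than 1 to 932 and none to 9160.

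Genotypes were compared with limma 3.58.1 (R 4.3.3), two-sided. The pair entered as a fixed effect, and p-values were adjusted by Benjamini-Hochberg over all 45037 probe sets. The pairs come from the design text and from neighbouring array names. Deviations from group means correlated at 0.258, 0.604 and 0.597 within pairs and at 0.215 or lower between pairs. The 0.215 was for CKO lung 2 with wild type lung 1, close to the value of pair 1. Centring each group on its mean ties the values between pairs to those within pairs. Their contrast is therefore no independent check of the pairing. An exact permutation test of 3 against 3 arrays cannot go below 0.1, or 0.25 within pairs, so none was used. The fit was tested on simulated data. Members, lists and tests were chosen with earlier results of these data known. Any member could be named, and of each related list the first 3 genes and the 4 with the smallest p. The motif search and the counts by pair and by unadjusted p were chosen after the values were seen. Alternatives were other normalizations, pseudocounts and filters, array weights, fits without the pair, and leaving out pairs or CKO lung 3.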

Additional observations from a re-analysis of the deposited data

How the results depend on the processing

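The count of 0 members past the adjusted threshold in limma held under 13 alternatives, the fit without a replicate block among them, and became 25 with array weights (24 lower) and 18 at an unadjusted p under 0.05. Members lower at an unadjusted p under 0.05 numbered 18 with the pair as a block (8.4% of all probe sets), 4 with no replicate block (2.79%), 10 after cyclic loess (7.45%) and 1 unpaired without CKO lung 3 (2.37%). With 1 pair left out they numbered 3 to 15, against 1.32% to 15.6% of all probe sets, with the lowest count without pair 1. The type I median (-0.49) became -0.20 after cyclic loess, -0.31 after quantile normalization and -0.27 unpaired without CKO lung 3, and was -0.54 to -0.39 with 1 pair left out. The antigen processing median (-0.39) became -0.14, -0.17 and -0.066 under those settings and -0.21 over all probe sets of a gene, and was -0.43 to -0.21 with 1 pair left out. The difference of the medians (-0.11) was -0.36 with array weights and -0.21 to -0.0077 with 1 pair left out. Some members changed sign, and the cause was not tested. After cyclic loess these were Rsad2 (0.029), Ifi35 (0.16), Xaf1 (0.21), Irf1 (0.39), Tap2 (0.05), B2m (0.037), Cd74 (0.40) and Ciita (-0.14). After quantile normalization they were Ifi35 (0.13), Xaf1 (0.20), Irf1 (0.31), Cd74 (0.29) and Ciita (-0.11). Unpaired without CKO lung 3 they were Irf7 (0.050), Stat2 (0.0023), Irf1 (0.25), Tap2 (0.032) and Cd74 (0.39). Array weights turned Irf7 (0.12) and Irf1 (0.24), centring turned Ciita (-0.0072), and the mean over probe sets turned Tap1 (0.26). With 1 pair left out, Oas1a ranged over -0.34 to 0.0041, Oas2 over -0.020 to 0.49, Ifit3 over -0.0010 to 0.49, Irf1 over -0.25 to 0.21, Igtp over -0.028 to 0.30 and Cd74 over -0.22 to 0.10. Dim signal limits Ciita, Ifit1, Mx1, Mx2, Oas3 and Oasl1, which lie in the dim class of genes.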

Other observations

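A few interferon-induced genes outside the members had their highest value in CKO lung 3, and they were chosen after their values were seen. Samhd1, which limits the nucleotides available to viruses, was at 9.83, 8.56 and 11.56 in CKO lungs 1 to 3 and at 8.92, 8.84 and 9.08 in wild type lungs 1 to 3. Its difference was 1.04 ± 1.39 (SD, 3 pairs), and CKO lung 2 lay below its partner. Herc6, a ligase that in mice attaches Isg15 to proteins, was at 8.02, 7.73 and 9.94 in CKO lungs and at 7.55, 7.75 and 7.96 in wild type lungs. Aim2, a sensor of DNA in the cytosol, was at 4.36, 3.72 and 6.06 in CKO lungs and at 3.79, 3.91 and 3.94 in wild type lungs. These values lay below the array medians of 6.15 to 6.30. In all 3 genes pair 2 had almost no difference or a small one below 0.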
